A study of Mus musculus with 9 samples.

Results

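XBP1 chromatin immunoprecipitation peaks were followed at 3 genes of ER-associated degradation, Edem1, Herpud1 and Syvn1, across 8 peak lists from mouse liver. The peaks were taken by position: every peak whose midpoint lay in a window of 60 kb for Edem1 (chromosome 6, 108760001 to 108820000, mm9), 40 kb for Herpud1 (chromosome 8, 96895001 to 96935000) or 30 kb for Syvn1 (chromosome 19, 6035001 to 6065000). This gave 41 of the 64078 peaks in all lists, and merging of overlapping peaks gave 10 sites. No mm9 annotation was at hand, so where each gene starts within its window was not determined here. In the mouse gene table of another build (GRCm38.p6) the protein-coding genes listed before and after are Arl8b and Gm6749 for Edem1, Slc12a3 and Nlrc5 for Herpud1, and Capn1 and Mrpl49 for Syvn1, and a peak in a window may belong to a gene other than the one the window is named for.

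The livers came from wild-type C57Bl6-J mice, with surgery at 8 weeks of age except for the basal livers, which had none, and each list came from 1 library. In 3 livers XBP1 had been silenced for 7 days with an adenovirus that expresses a short hairpin RNA (shXBP1): basal liver, liver 6 h after partial hepatectomy (PH) and liver 48 h after it. The other 5 lists came from livers without that hairpin: 1 basal, 2 taken 6 h and 48 h after PH, and 2 taken 6 h and 48 h after sham surgery. Per the labels' protocols clodronate liposomes, which deplete macrophages, were given before the virus. A control hairpin against LacZ is named there, but the labels do not tie it to a library, nor say whether a library held 1 animal or a pool. An effect of the virus or of clodronate therefore cannot be told apart from one of silencing. Silencing itself could not be checked in peak lists. As every condition had 1 library, the spread between animals is unknown and all values describe these libraries.

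XBP1 switches on genes of the unfolded protein response and is made from a messenger RNA that the stress sensor IRE1 splices when misfolded protein builds up in the endoplasmic reticulum (ER). ER-associated degradation, ERAD, draws misfolded proteins out of the ER for destruction by the proteasome. Edem1 is a mannosidase-like protein that trims sugars on misfolded glycoproteins and so marks them for disposal. Syvn1, also called Hrd1, is the ubiquitin ligase in the ER membrane through which they leave, and Herpud1 is a small ubiquitin-like membrane protein that assembles with that ligase and is strongly induced by ER stress. The liver secretes much of the protein of blood plasma, so its ER carries a heavy folding load.

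The promoters are shown because known elements of ER stress genes can be read in them. The sequences are RefSeq's, in GRCm38.p6, from 250 bases before to 50 bases after the start of transcription, all on the + strand of their chromosome: chr6:108828391-108828690 for Edem1, chr8:94386179-94386478 for Herpud1 and chr19:6046326-6046625 for Syvn1. These positions belong to another build than the peaks and were not compared with them. Capitals mark every match to a searched motif.
Edem1 promoter: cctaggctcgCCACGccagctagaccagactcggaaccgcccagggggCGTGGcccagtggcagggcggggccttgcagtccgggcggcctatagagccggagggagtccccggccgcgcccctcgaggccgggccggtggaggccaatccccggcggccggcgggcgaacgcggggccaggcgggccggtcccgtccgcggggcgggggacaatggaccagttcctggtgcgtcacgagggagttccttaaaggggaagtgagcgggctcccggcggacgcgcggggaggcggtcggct
Herpud1 promoter: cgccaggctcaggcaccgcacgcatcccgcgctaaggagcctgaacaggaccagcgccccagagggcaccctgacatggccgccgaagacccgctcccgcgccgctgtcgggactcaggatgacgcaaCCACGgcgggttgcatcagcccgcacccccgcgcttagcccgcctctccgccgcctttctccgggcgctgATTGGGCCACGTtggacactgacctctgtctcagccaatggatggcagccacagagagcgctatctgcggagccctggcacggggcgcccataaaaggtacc
Syvn1 promoter: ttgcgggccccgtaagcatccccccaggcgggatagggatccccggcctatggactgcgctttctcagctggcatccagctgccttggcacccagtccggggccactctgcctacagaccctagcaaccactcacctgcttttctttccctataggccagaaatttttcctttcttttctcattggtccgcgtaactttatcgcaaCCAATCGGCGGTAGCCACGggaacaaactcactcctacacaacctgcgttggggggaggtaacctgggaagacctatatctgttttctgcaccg

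The searched motifs, on both strands, were the ER stress response element ERSE (CCAAT and CCACG with 9 bases of any kind between them), its second form ERSE-II (ATTGG and CCACG with 1 base between them), TGACGTGG and TGACGTGA of the unfolded protein response element, GCCACGT, and the core CCACG, which is contained in all of them but TGACGTGA. Syvn1 held ERSE as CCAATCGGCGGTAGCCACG, beginning 44 bases before the start, a motif found in 39 of 32851 promoters (0.119%). Herpud1 held ERSE-II as ATTGGGCCACG, beginning 52 bases before the start and overlapping a GCCACGT; 12 promoters (0.0365%) held ERSE-II and 846 (2.58%) held GCCACGT. The Edem1 promoter held neither element and no GCCACGT, TGACGTGG or TGACGTGA. It held CCACG at 2 places, as did Herpud1, against 1 in Syvn1, but CCACG was present in 32.8% of all promoters. Among 26 other ERAD genes, 19 were in the promoter table. Of the 19, 1, Derl3, held ERSE, 0 held ERSE-II, and 2, Ube2j1 and Vcp, held TGACGTGG. GCCACGT was found in 5 of the 19, namely Derl3, Os9, Ube2j1, Selenos and Vcp, against 2.95% of all genes. A match is a description of letters and not of binding.

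Each window held a strong site found in all 5 unsilenced livers, called its main site below, and 7 further sites made up the rest. Edem1 had 4 sites, Herpud1 4 and Syvn1 2. In the silenced livers the windows together held 4 peaks in basal liver, 3 at 6 h after PH and 1 at 48 h after PH, against 3, 9 and 4 peaks in the unsilenced livers of the same states. The whole lists held 177, 4325 and 102 peaks with silencing, against 2482, 22071 and 7212 without. List length and an effect of silencing therefore cannot be told apart in these numbers. Taken as pairs, the silenced minus unsilenced number of window peaks was −2.67 ± 3.51 (SD, n = 3 states). Exact permutation of the signs gave a two-sided p of 0.5, where 3 pairs allow 0.25 at the smallest. The states are different conditions with 1 library each, so the SD is a spread between states, not between animals. With so few pairs the test could not decide, and nothing is concluded from it. The silenced number of window peaks was lower in 2 of 3 states. In basal liver the 4 silenced peaks included 2 at the same Herpud1 site. With peaks within 500 bp merged, both basal lists held 3. After the sham operation the windows held 11 of 23087 peaks at 6 h and 6 of 4622 at 48 h. For a background, the genome was cut into windows of the same lengths, up to the last peak of each chromosome. All 5 unsilenced lists had a peak in 4.05% of 60 kb windows, 2.75% of 40 kb windows and 2.06% of 30 kb windows. The peaks of the 5 lists need not overlap within such a window. The cut windows include regions without genes, so this gives only a background for having peaks at all.

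**Figure D1:**
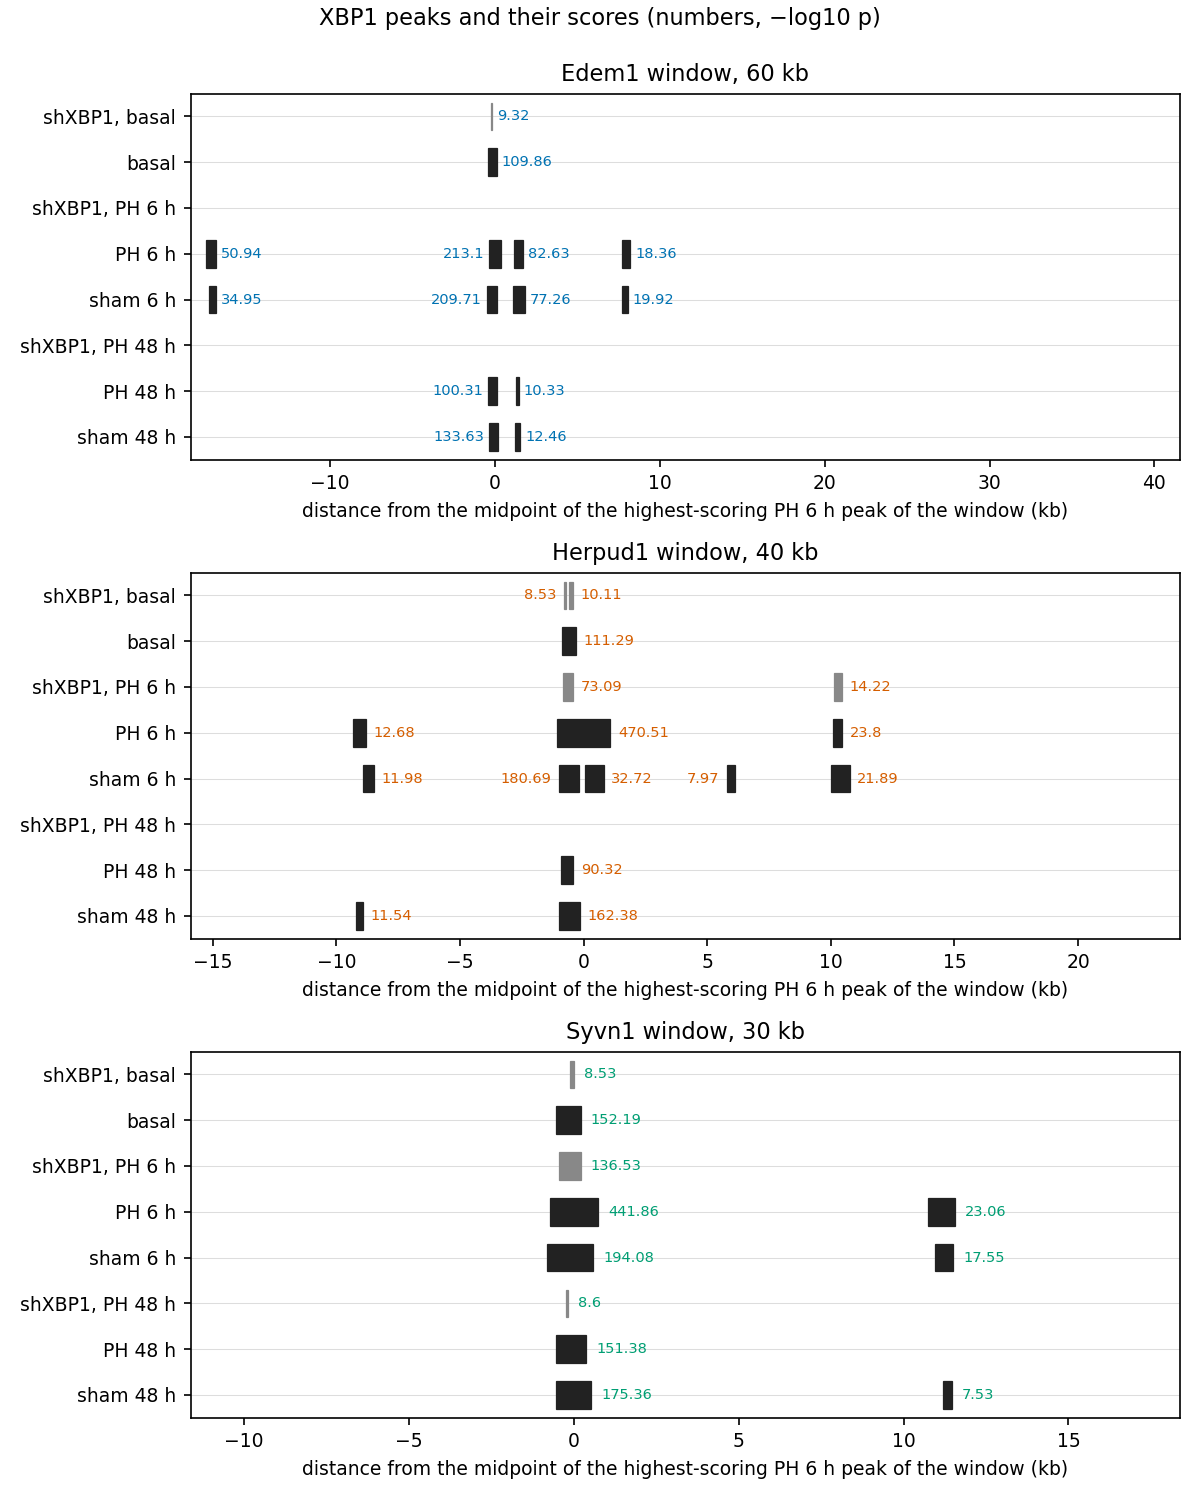
Peaks of the 8 lists in the 3 windows, 1 row per list with each silenced liver above the unsilenced liver of its state, against distance in kb from the midpoint of the highest-scoring PH 6 h peak. Bars (grey silenced, black unsilenced) span the peaks and numbers are scores (−log10 p). Every unsilenced row has a peak near 0. The Edem1 rows of the silenced 6 h and 48 h livers and the Herpud1 row of the silenced 48 h liver are empty.

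At Edem1 the main site lay on chromosome 6 (108778099 to 108778821 at 6 h after PH). The score that the peak caller gives each peak is taken as −log10 of a p-value and ranks peaks within a list only, with rank 1 the highest. In silenced livers the main site had a score of 9.32 in basal liver and no peak at 6 h or 48 h after PH. In unsilenced livers it had a score of 109.86 in basal liver, 213.1 at 6 h and 100.31 at 48 h after PH, and 209.71 at 6 h and 133.63 at 48 h after the sham operation. The 5 unsilenced lists thus all had the site, and 1 of 3 silenced lists did.

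Within its own list the Edem1 main site ranked 73 of 2482 peaks in basal liver, 433 of 22071 at 6 h after PH and 100 of 7212 at 48 h after PH. After the sham operation it ranked 81 of 23087 at 6 h and 113 of 4622 at 48 h. It was therefore among the top 3% of every unsilenced list, and in the silenced basal list it ranked 102 of 177. Divided by peak width, its score took rank 3 in the sham list of 6 h and rank 300 in the PH list of 6 h.

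Distances from a main site run with the chromosome's numbering, negative towards lower positions. A companion site lay at 1.46 kb from the main Edem1 peak of 6 h after PH (108779550 to 108780286). It scored 82.63 at 6 h and 10.33 at 48 h after PH, against 77.26 at 6 h and 12.46 at 48 h after the sham operation. Basal liver had no peak there, with or without silencing. Sites at −17.21 kb and 7.94 kb from the main peak were found only in the 6 h lists: the site at −17.21 kb scored 50.94 after PH and 34.95 after the sham operation, and that at 7.94 kb 18.36 after PH and 19.92 after the sham operation. No Edem1 site other than the main one had a peak in any of the 3 silenced lists.

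At Herpud1 the main site lay on chromosome 8 (96909803 to 96911976 at 6 h after PH). In silenced livers it carried 2 narrow peaks in basal liver, with scores of 8.53 and 10.11, a peak of score 73.09 at 6 h after PH and none at 48 h. In unsilenced livers the scores were 111.29 in basal liver, 470.51 at 6 h and 90.32 at 48 h after PH, and, after the sham operation, 180.69 and 32.72 for 2 peaks at 6 h and 162.38 at 48 h. The main site was thus present in 7 of the 8 lists.

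The Herpud1 main site ranked 72 in basal liver, 70 at 6 h and 125 at 48 h after PH, and after sham surgery 143 for the higher peak at 6 h and 87 at 48 h. Its rank in the silenced list of 6 h was 148 of 4325. These ranks were all within the top 4% of their lists. In the silenced basal list the higher peak of the site ranked 74 of 177. Divided by peak width, the score of the site took rank 626 in the PH list of 6 h and rank 98 in the sham list of 6 h.

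The Herpud1 peak at 6 h after PH was broad. It spanned 2174 bp, a width reached by 10 peaks of that list, itself included (0.0453%), and its midpoint lay at 587 bp from the basal midpoint. Over all basal peaks with a counterpart in that list, the median distance between midpoints was 56.5 bp. In the 6 h sham list the same stretch was called as 2 peaks of 832 bp and 746 bp, and 2.08% of the PH peaks with a sham counterpart overlapped 2 or more sham peaks. The silenced 6 h peak, 412 bp wide, lay with its midpoint at −28.0 bp from the basal one and so covered the left part of the broad peak. The stretch of the second sham peak had no peak in basal or 48 h liver, nor in any silenced liver.

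**Figure D2:**
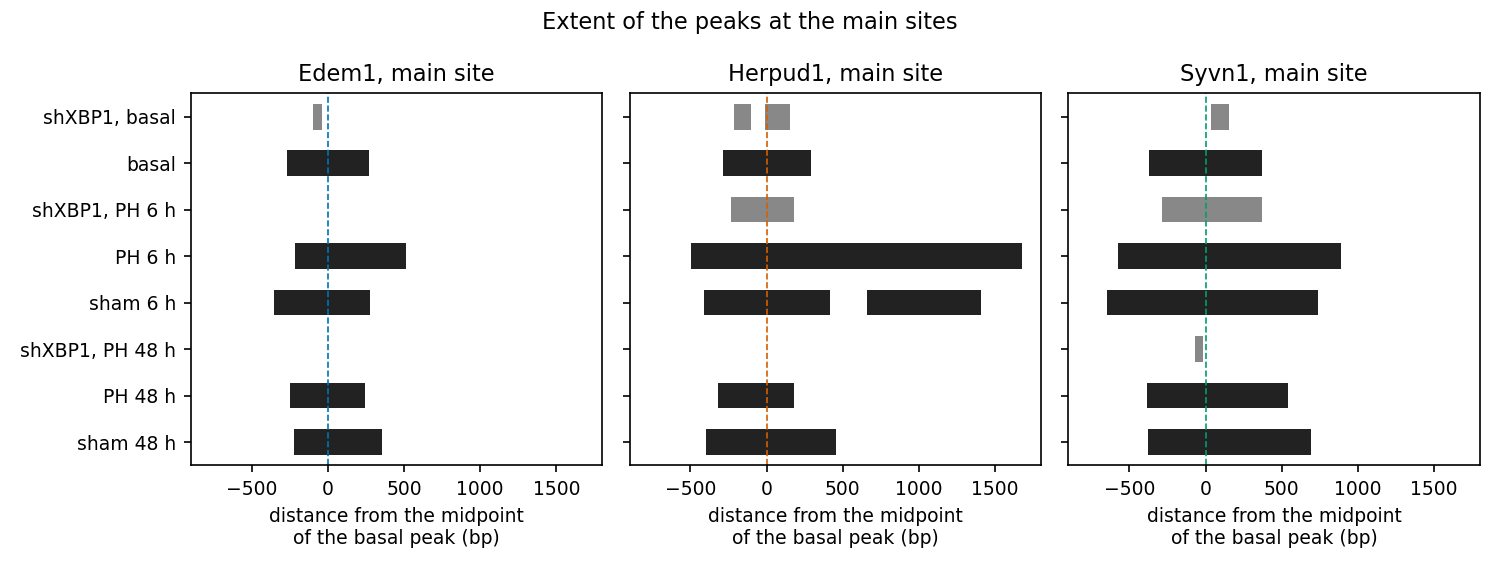
Extent of each peak at the 3 main sites in base pairs from the midpoint of the basal peak (dashed line), 1 row per list, grey for silenced and black for unsilenced livers. The Herpud1 peak at 6 h after PH reaches 1673.5 bp to the right, where the 6 h sham list has a separate peak, and the silenced basal and silenced 48 h peaks are narrow and lie inside the unsilenced ones.

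The other Herpud1 sites were weaker. A site at 10.37 kb from the main peak scored 14.22 in the silenced liver at 6 h after PH, 23.8 in the unsilenced one and 21.89 at 6 h after the sham operation. It was the only further site of the 3 windows with a peak in a silenced liver. A site at −8.90 kb scored 12.68 at 6 h after PH, and 11.98 at 6 h and 11.54 at 48 h after the sham operation. There the sham peaks of 6 h and 48 h abut without overlapping, and both overlap the PH peak. The remaining site, at 5.95 kb with a score of 7.97, was called only at 6 h after the sham operation, at rank 21669 of 23087.

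Syvn1 had the site most widely called of the 10. It lay on chromosome 19 (6045893 to 6047354 at 6 h after PH) and carried a peak in all 8 lists, as did 53 of the 1859 regions that all 5 unsilenced lists share. In silenced livers the scores were 8.53 in basal liver, 136.53 at 6 h and 8.6 at 48 h after PH. In unsilenced livers they were 152.19 in basal liver, 441.86 at 6 h and 151.38 at 48 h after PH, and 194.08 at 6 h and 175.36 at 48 h after the sham operation.

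The Syvn1 main site ranked 42 in basal liver, 89 at 6 h and 37 at 48 h after PH, and after sham surgery 111 at 6 h and 80 at 48 h. Its rank under silencing was 114 of 177 in basal liver, 48 of 4325 at 6 h and 55 of 102 at 48 h. Divided by peak width, its score took rank 277 in the PH list of 6 h and rank 485 in the sham list of 6 h. The silenced basal and silenced 48 h peaks, 115 bp and 53 bp wide, both lay inside the 741 bp common to the unsilenced peaks but did not overlap each other. A further Syvn1 site at 11.16 kb scored 23.06 at 6 h after PH, and 17.55 at 6 h and 7.53 at 48 h after the sham operation. It was in no silenced list.

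**Figure D3:**
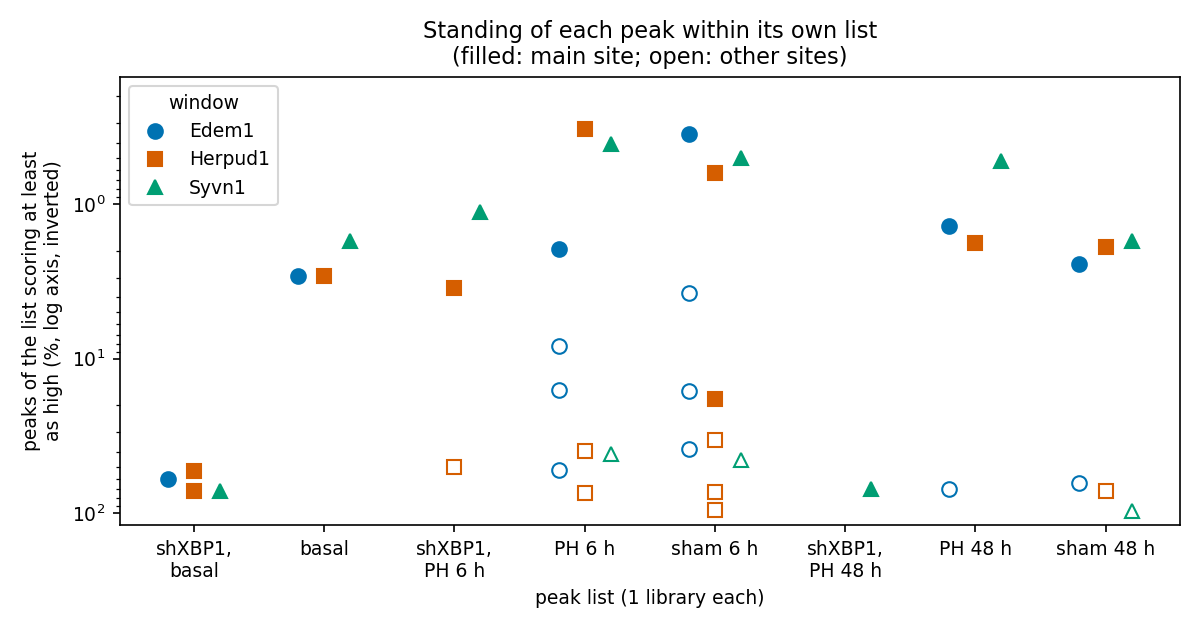
Percent of peaks in the same list that score at least as high, on an inverted log axis, for every peak of the 3 windows, by list (1 library each). Filled symbols are the main sites and open symbols the other sites; in the unsilenced lists the highest-scoring peak of each main site lies within the top 3%, and in the silenced basal and silenced 48 h lists between 53.1% and 71.8%.

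Loss after silencing was scored as the absence of any overlapping peak, by at least 1 bp, in the matching silenced liver. In the basal state 0 of the 3 window peaks were lost, against 95.2% (94.3 to 96.0%, Clopper-Pearson 95% interval, counting error only) of all 2482 basal peaks. The list was cut into 10 score classes of equal size, class 1 the highest, and the 3 peaks were in class 1, where 99 of 248 peaks (39.9%, 33.8 to 46.3%) had a counterpart. The Syvn1, Edem1 and Herpud1 peaks ranked 42, 73 and 72, in the upper part of that class. Of the basal peaks scoring at least as high as the Syvn1, Edem1 and Herpud1 peaks, 2.33%, 9.59% and 9.72% were lost. The counterparts were weak: the 4 silenced peaks were 60 bp to 165 bp wide and scored 8.53 to 10.11. With scores under 10 left out, 2 of the 3 genes, Edem1 and Syvn1, had none. The median score was 10.11 in that silenced list, against 14.5 without silencing, so the cut took a larger part of the silenced list. When both peaks had to be covered to at least 50%, all 3 peaks counted as lost. Width fixed that outcome, as these silenced peaks are too narrow to cover 50% of basal peaks 536 bp to 741 bp wide. The share of all basal peaks lost under that rule was not computed, and nothing is concluded from it. Peaks began at a width of 53 bp in silenced basal liver, against 227 bp without silencing, so a difference in calling and an effect of silencing cannot be told apart.

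At 6 h after PH 6 of the 9 window peaks were lost, against 81.1% (80.6 to 81.6%) of all 22071 peaks. The silenced list held 4325 peaks, and a shorter list and an effect of silencing cannot be told apart. Edem1 lost all 4 of its peaks, Herpud1 lost 1 of 3 and Syvn1 lost 1 of 2. At the main sites of Herpud1 and Syvn1 the peak was kept. Of the 72 and 90 peaks that scored at least as high as theirs, 0 were lost. Both calls depend on how a counterpart is defined. When both peaks had to be covered to at least 50%, 8 of the 9 peaks counted as lost, the Herpud1 and Syvn1 main sites among them. Width fixed this at both main sites, as silenced peaks of 412 bp and 660 bp cannot cover 50% of 2174 bp and 1462 bp. The broad Herpud1 peak also counted as lost where midpoints had to lie within 250 bp.

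At the Edem1 main site no peak was called in the silenced liver at 6 h after PH. Of the 433 peaks of the unsilenced list that scored at least as high, 2 (0.462%) had no counterpart in the silenced list, this peak included, while 87.7% (86.2 to 89.0%) of class 1 had one. The nearest peak of the silenced list was 43398 bp away. The companion site, with its score of 82.63, was in the same class and was lost as well. It ranked 1827, low in that class of 2207 peaks, and 9.09% of the peaks scoring at least as high were lost. The weaker Edem1 peaks, with scores of 50.94 and 18.36, fell in classes 2 and 6, where 46.9% and 4.49% of the peaks had a counterpart.

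The pattern of Edem1 over the silenced livers was singled out after its values were seen. All 5 unsilenced lists shared 1859 regions, of which 115 also had a silenced basal peak, and 1 of these had none in the silenced 6 h list. That region was the Edem1 main site. Without the need for a peak in all 5, 3 of the 177 silenced basal peaks (1.69%) lay on a basal and an unsilenced 6 h PH peak and had no silenced 6 h peak. The pattern rests on the silenced basal peak of 60 bp with a score of 9.32, in a library of 177 peaks, and with scores under 10 left out Edem1 no longer showed it.

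At 48 h after PH 3 of the 4 window peaks were lost, against 99.1% (98.8 to 99.3%) of all 7212 peaks. The Syvn1 main site was kept, with a silenced peak of 53 bp and a score of 8.6. It too counted as lost when both peaks had to be covered to at least 50% or when scores under 10 were left out. A peak of 53 bp cannot cover 50% of the unsilenced 925 bp, and the median score of that silenced list was 9.65. Edem1 lost its main and its companion site, and Herpud1 lost its main site. The Edem1 and Herpud1 main sites ranked 100 and 125, and of the peaks scoring at least as high 49.0% and 58.9% were lost. Against the silenced list of 6 h in place of that of 48 h, the Herpud1 main site had a counterpart and both Edem1 sites had none. Widths began at 53 bp in the silenced and 190 bp in the unsilenced liver, and here too calling and silencing cannot be told apart.

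In the other direction, the silenced peaks of the windows all lay on an unsilenced peak of their state. This held for 4 of 4 in basal liver, 3 of 3 at 6 h and 1 of 1 at 48 h after PH, while 10.7%, 1.78% and 23.5% of all silenced peaks of these lists had no unsilenced counterpart.

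**Figure D4:**
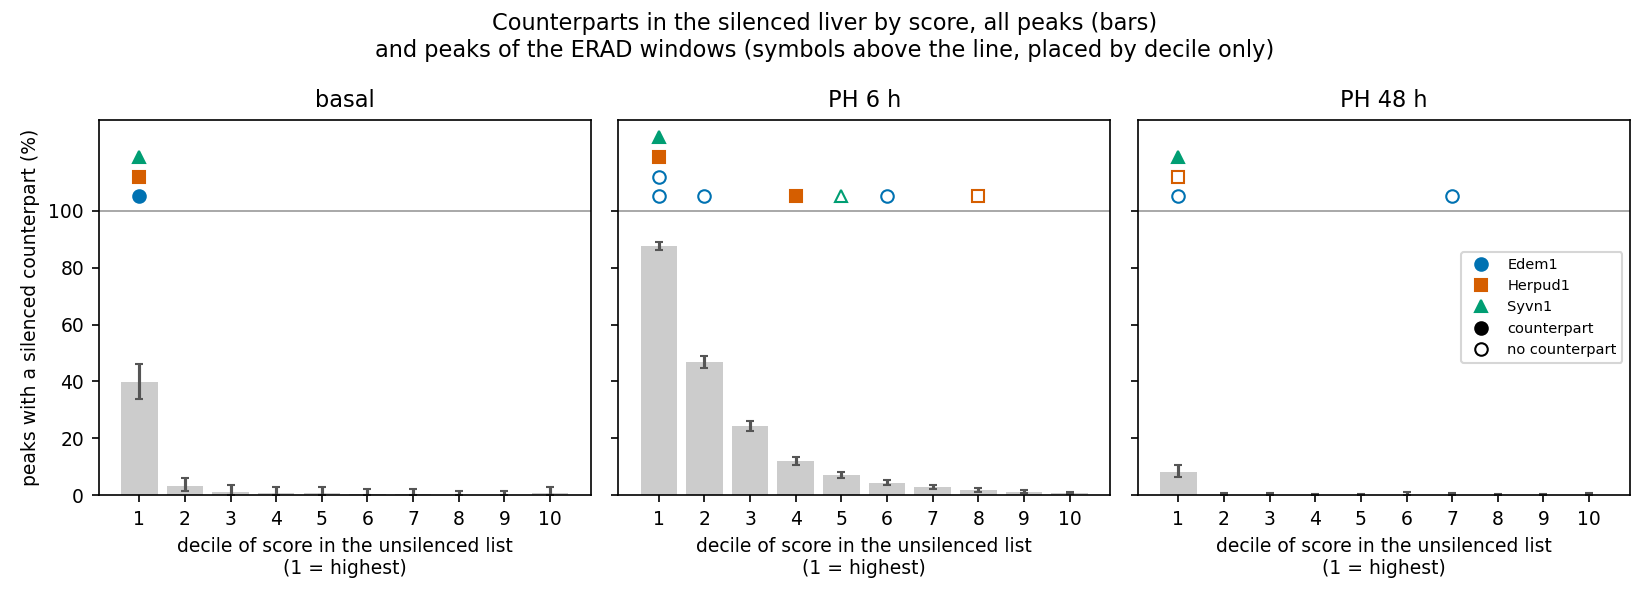
Percent of unsilenced peaks with an overlapping peak in the silenced liver of the same state, by score class (1 highest, 10 classes; bars with Clopper-Pearson 95% intervals), in basal liver and 6 h and 48 h after PH. Symbols above the line place the window peaks by class only, filled where a counterpart was called. At 6 h after PH, 2 Edem1 peaks without a counterpart stand in the class where 87.7% have one. They scored 213.1 and 82.63, in a class of scores from 71.86 to 828.25.

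The sham operation separates the removal of liver tissue from the surgery. At 6 h 0 of the 9 PH peaks lacked a sham counterpart, against 23.1% of all PH peaks, and 1 of the 11 sham peaks, the weak Herpud1 site, lacked a PH counterpart, against 25.9% of all sham peaks. At 48 h 0 of the 4 PH peaks lacked a sham counterpart, against 52.9% of all PH peaks. At 6 h 4 of the 9 PH peaks were in class 1, where 99.9% of all peaks had a sham counterpart, and the classes of the other 5 had shares of 60.4 to 97.7%. At 48 h 3 of the 4 were in class 1, where 92.9% had one, and the class of the Edem1 companion site had a share of 32.7%. In the other direction at 48 h 2 of 6 sham peaks lacked a PH counterpart, against 27.5% of all sham peaks. These were the weaker Herpud1 and Syvn1 sites, with scores of 11.54 and 7.53. Where midpoints had to lie within 250 bp, 2 of the 9 PH peaks at 6 h lacked a sham counterpart, both in the Herpud1 window. The share over all PH peaks under that rule was not computed.

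The main sites were put in order of score within each list. At 6 h after PH Herpud1 scored highest, then Syvn1 and Edem1, and at 6 h after the sham operation Edem1 was first, then Syvn1 and Herpud1. At 48 h Syvn1 was first in both lists, followed by Edem1 and then Herpud1 after PH, and by Herpud1 and then Edem1 after the sham operation. Basal liver had Syvn1 first, then Herpud1 and Edem1. Divided by width, the scores gave Edem1 the first place in the 6 h sham list and in both 48 h lists, and Syvn1 the first place in basal liver and at 6 h after PH. The first places of Syvn1 were narrow. It ranked 58 against 59 for Edem1 in basal liver, and 277 against 300 at 6 h after PH. On that scale both 48 h lists had the same order, Edem1, Herpud1 and then Syvn1. Scores come from lists that need not share a scale, and no spread between animals was available for these orders.

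Over time, the main sites were called in basal liver as well as after surgery, while the further sites were called in operated livers only. All 3 basal peaks had a counterpart in each of the 4 operated lists, while 1.73% of all basal peaks had none at 6 h and 12.0% at 48 h after PH, and 1.57% and 17.7% at these times after the sham operation. Of the window peaks at 6 h after PH, 6 of 9 had no basal counterpart, against 89.1% of all peaks, and at 48 h 1 of 4 had none, against 69.7%. For the sham operation 8 of 11 had none at 6 h, against 89.5% of all peaks, and 3 of 6 at 48 h, against 56.0%. Between the times, 5 of the 9 PH peaks of 6 h had no PH counterpart at 48 h, against 71.1% of all peaks, and 6 of the 11 sham peaks of 6 h had none at 48 h, against 80.6%. The 7 further sites numbered 0 in basal liver, 6 at 6 h and 1 at 48 h after PH, and 7 at 6 h and 3 at 48 h after the sham operation. Their scores at 6 h ran from 12.68 to 82.63 after PH and from 7.97 to 77.26 after the sham operation. The 6 h lists were the longest of all, with 22071 peaks after PH and 23087 after the sham operation. Since the sources used here give no read numbers, a deeper 6 h library and a gain of sites cannot be told apart.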

How the data were processed

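Per the labels' protocols, XBP1 was immunoprecipitated from fixed liver with the antibody M-186 before sequencing. The submitters' processing notes name Bowtie2, MACS 1.4.2 and the build mm9. The sources used here do not give the settings or whether the basal input entered the calling, and the input was not analysed here. The 8 deposited lists give chromosome, start, end and score. The deposited score was read as a −log10 p-value because the lowest score of each list lay between 4.33 and 5.27. That scale is inferred. Scores were compared only inside their own list, except that the cut at a score of 10 was the same for all lists. Median scores were 10.11 in silenced basal and 9.65 in silenced 48 h liver, against 14.5 and 12.67 without silencing. The cut therefore took a larger part of these silenced lists. Depth per library is unknown.

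Groups came from the sample titles. Peaks were taken by midpoint, written 1-based, and compared by overlap of at least 1 bp. Shares over all peaks of a list are the background. Tiled windows ran to the last peak of each chromosome. The windows, lists and motifs were chosen with earlier results of these data known. The named genes were the 3 genes that name the windows, with all their peaks. No mm9 annotation was at hand, so peaks near other ERAD genes were not counted. With 1 library per condition no test within a state was possible; the silenced and unsilenced numbers of window peaks were paired by state and their differences tested by exact permutation of the signs, chosen after seeing the data. Intervals cover counting error only. Python 3.11.15, NumPy 2.4.6, pandas 2.3.3, SciPy 1.17.1 and matplotlib 3.10.9 were used. Overlap counting was tested on simulated data, in which a known random subset of a list's own peaks was shifted to serve as the list compared with; the count found differed from that of bedtools 2.31.1 by 0 peaks.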

Additional observations from a re-analysis of the deposited data

How the results depend on the processing

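The labels give no replicate numbers, and within a state no library could be left out in turn. With the silenced and unsilenced livers paired by state, leaving out the basal, 6 h or 48 h pair gave a mean difference in window peaks of −4.5, −1.0 or −2.5, against −2.67 over all. With a score of at least 10 required, the silenced basal list kept 1 of 4 window peaks and the silenced 48 h list 0 of 1. The loss in basal liver, 0 of 3 peaks as reported, was 3 where both peaks had to be covered to at least 50%, 2 with scores under 10 left out of both lists, and 1, at Edem1, against the silenced 6 h list. The count of 3 followed from the small width of the silenced peaks. Between equal numbers of highest-scoring peaks fewer window peaks were left to compare: 3 of 5 were lost at 6 h after PH and 1 of 2 at 48 h. Without a basal counterpart there were then 1 of 4 at 6 h and 0 of 3 at 48 h after PH, and 1 of 4 at 6 h and 0 of 3 at 48 h after the sham operation. A counterpart in any silenced list, an alternative chosen after seeing the data, left 1 of 4 peaks lost at 48 h after PH. Of the PH peaks at 6 h, 2 of 9 lacked a sham counterpart with midpoints within 250 bp, and 2 where both peaks had to be covered to at least 50%. For the recomputed settings the shares over all peaks of a list were not computed, so the counts describe the window peaks alone. The cause of these shifts was not tested. The other 76 of 90 recomputed totals stayed within 1.5 times the reported one. Of 191 values for single genes or ranks, 48 were counted as moved. For ranks that count includes shifts of less than 1.5 times. The Syvn1 main site in basal liver, for example, went from rank 42 to rank 58 when scores were divided by width. With peaks over 2 kb left out, the Herpud1 main site at 6 h after PH was not ranked.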
